A study of Macaca mulatta with 16 samples.

Results

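The matrix metalloproteinases MMP1, MMP2, MMP3, MMP7, MMP8, MMP9, MMP12 and MMP14 and the tissue inhibitors of metalloproteinases TIMP1 and TIMP3 were followed through the fetal lungs of rhesus macaques. The 10 genes were taken by symbol, and each symbol had 1 row in the table of 22515 genes. The rule itself uses no measured value, but the family was picked with earlier results of these data known. Lung RNA of 16 fetuses was measured by poly(A)-selected RNA sequencing, with 1 library per animal. The 4 preterm controls were untreated and delivered at 131 to 135 days of gestation, and the 2 term controls were untreated and delivered at 156 and 157 days. In the LPS groups 1 mg of bacterial lipopolysaccharide was injected into the amniotic fluid at 126 to 130 days, and 4 fetuses were delivered 16 hours later (LPS 16h) and 3 fetuses 5 days later (LPS 5d), at 130 to 134 days. In the LPS + Beta-Ac group, 3 fetuses received the same LPS, the dam was given intramuscular betamethasone-acetate (Beta-Ac), a corticosteroid, at 0.125 mg/kg, and delivery was 5 days later at 131 or 132 days. Animals given Beta-Ac alone were not analysed here, so the steroid was seen only on top of LPS.

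Matrix metalloproteinases are zinc-dependent proteases that are made as inactive precursors, become active once the prodomain is displaced or removed, and together degrade most proteins of the extracellular matrix. They also cleave cytokines, receptors and other proteases, and TIMPs bind their active site and block it. In the lung they are known for remodeling during branching and alveolar formation and for the tissue breakdown that accompanies neutrophil and macrophage inflammation. RNA levels measure neither the secreted protein nor its activation.

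The 4 LPS 16h libraries held 30596371 to 48052891 counts and the other 12 libraries 20169363 to 28348816 counts. Pairs of animals within a group differed by 31.1 to 166 times the variance of counting alone, so no library was a duplicate of another. The type 2 cell gene SFTPC was at 1797 CPM or more and the transcription factor NKX2-1 at 47.2 CPM or more in every library, so markers of the labelled tissue were present throughout. Levels are given as CPM, the counts of a gene relative to its library's total, after TMM scaling, and a gene was called when its Benjamini-Hochberg adjusted p in the limma fit over all genes was below 0.05 and its change was at least 2-fold. Values in CPM are not corrected for gene length, so they were compared between animals and not between genes. In whole lung tissue, a change in the number of cells of a type and a change in RNA per cell cannot be told apart.

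**Figure D1:**
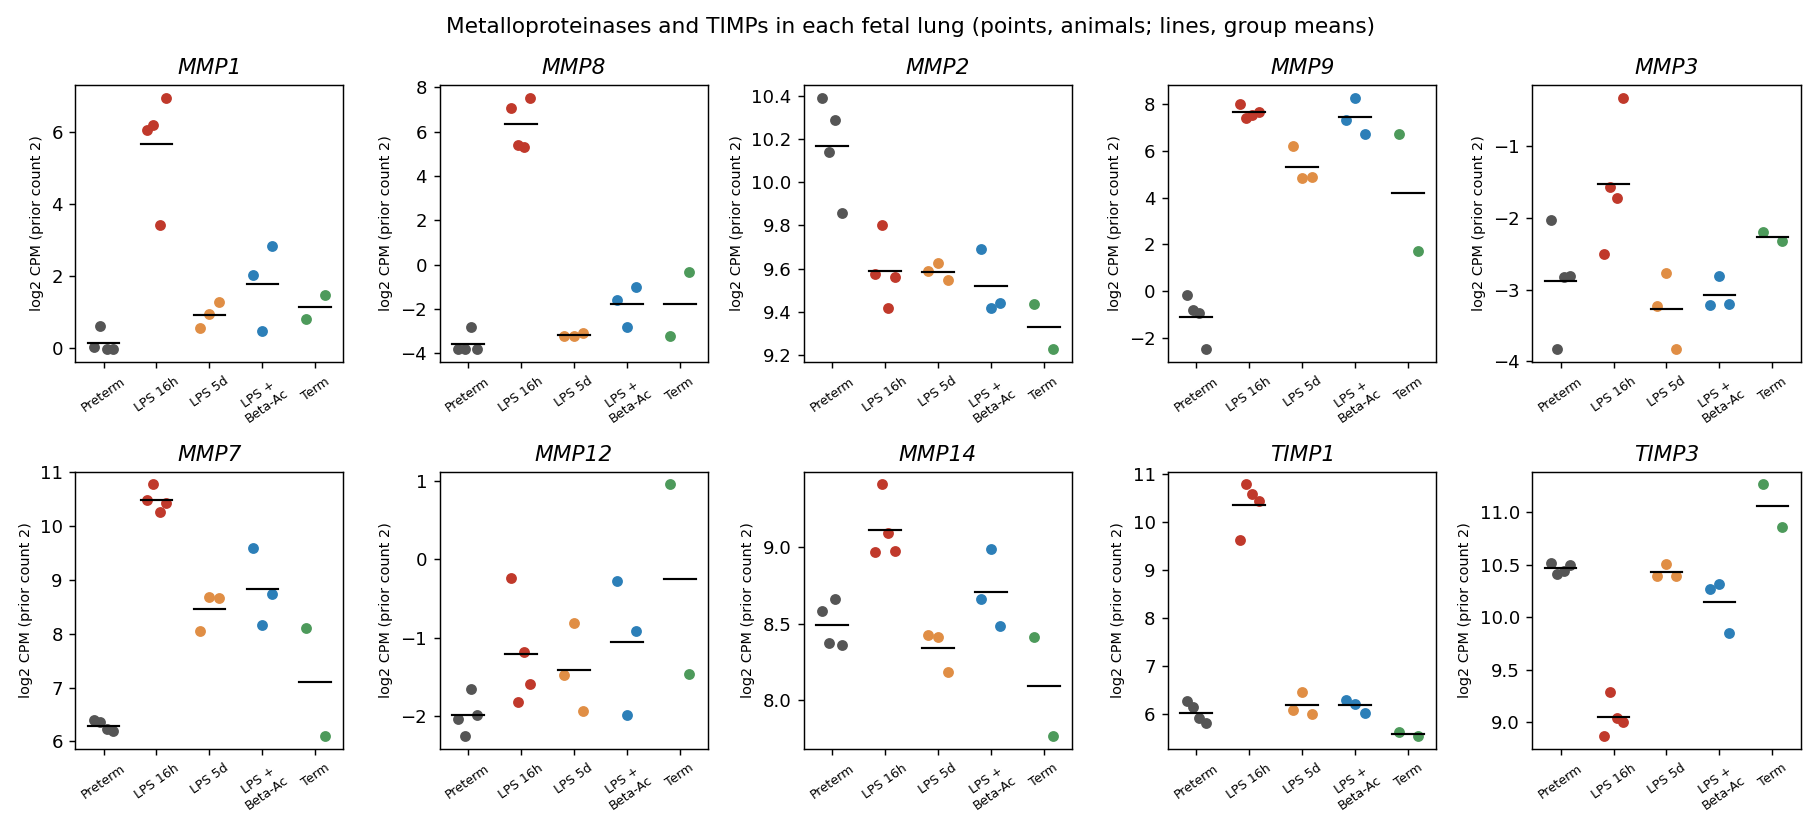
Level of each of the 10 genes in each of the 16 fetal lungs, as log2 CPM with a prior count of 2 on axes that differ between panels; points are animals and lines are group means. MMP1, MMP7, MMP8 and TIMP1 stood highest in all 4 LPS 16h animals and TIMP3 lowest, whereas MMP9 was also high in LPS 5d, LPS + Beta-Ac and 1 of the 2 term animals.

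Of the 10 genes, 9 were among the 19199 tested, and MMP3 had too few counts. MMP8 reached the filter of 0.371 CPM in 6 animals, 4 of them LPS 16h, and MMP12 in 5 animals. Against preterm controls, LPS 16h had 5 of the 9 tested genes called higher (MMP1, MMP7, MMP8, MMP9 and TIMP1), beside 8.25% of all genes, and 1 called lower (TIMP3), beside 6.11%. In LPS 5d, 2 genes were called higher (MMP7 and MMP9), beside 2.6% of all genes, and 0 lower, beside 2.24%. MMP7 and MMP9 were also called higher in LPS + Beta-Ac, beside 4.05% of all genes, and 0 genes lower, beside 2.44%. At term, 1 gene was called higher (MMP9), beside 1.11% of all genes, and 0 lower, beside 0.953%. At an unadjusted p under 0.05 and with no limit on fold, 1 of the 9 genes was lower in LPS 5d (MMP2), beside 15.9% of all genes, 2 in LPS + Beta-Ac (MMP2 and TIMP3), beside 16.6%, and 2 at term (MMP2 and MMP14), beside 11.0%. Limma-voom called 0 lower in each. These 4 comparisons share the preterm controls. Over the 8 genes with enough counts for a fold change (all tested members except MMP8), the median log2 fold change was 2.49 in LPS 16h, 0.36 in LPS 5d, 0.57 in LPS + Beta-Ac and 0.70 at term, whereas the median over all genes tested lay between -0.09 and 0.00.

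**Figure D2:**
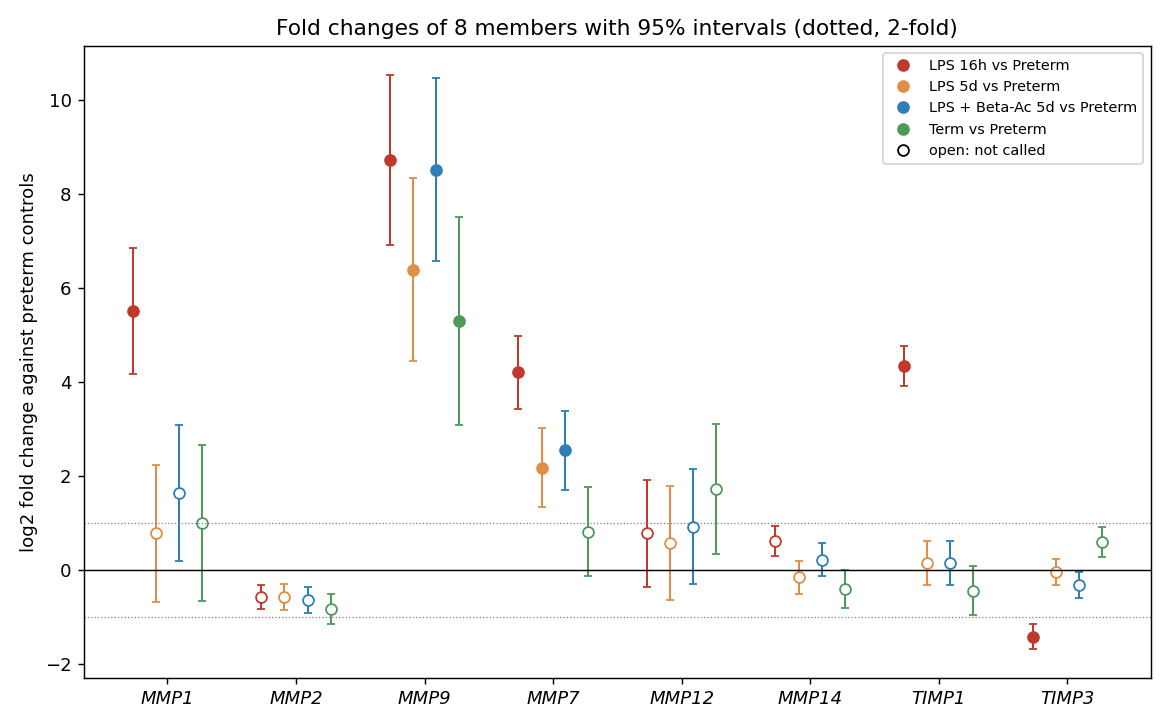
Log2 fold change against preterm controls for the 8 genes with enough counts in every group, with 95% intervals; filled points were called and open points were not, and dotted lines mark a 2-fold change. TIMP1 and TIMP3 moved in opposite directions in LPS 16h and lay close to 0 in LPS 5d, and MMP9 lay above 5 in all 4 comparisons.

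MMP1, the interstitial collagenase that cleaves fibrillar collagen, was at 0.958, 1.48, 0.923 and 0.911 CPM in preterm controls 092, 101, 113 and 209. In LPS 16h it was at 66.3, 73.4, 10.8 and 125 CPM in animals 026, 029, 035 and 038. All 4 animals thus stood above every preterm control, and animal 035 stood well below the other 3. The log2 fold change was 5.51 (SE 0.63, adjusted p = 1.04e-05), and without animal 035 it was 6.26. Levels were 1.42, 1.88 and 2.38 CPM in LPS 5d, 4.07, 1.34 and 7.06 CPM in LPS + Beta-Ac, and 1.69 and 2.75 CPM at term. These groups overlapped with their neighbors in level, and none was called against preterm controls (adjusted p between 0.119 and 0.54). The LPS + Beta-Ac value, a log2 change of 1.63 (95% interval 0.18 to 3.09), passed with an adjusted p of 0.0478 when only those 2 groups entered the fit, and was 2.31 without animal 249 (adjusted p = 0.0501). MMP1 was 4.72 higher on the log2 scale in LPS 16h than in LPS 5d (SE 0.68, adjusted p = 0.000104), and 5.45 higher without animal 035.

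MMP8, the collagenase stored in neutrophil granules, was almost absent outside LPS 16h. Preterm controls held 0, 0, 2 and 0 counts and the LPS 5d animals 1 count each. In LPS 16h animals 026, 029, 035 and 038 held 3737, 1602, 1725 and 6405 counts, or 133, 42.6, 40.0 and 186 CPM. Relative to library totals, the summed counts were 4093 times those of preterm controls (95% exact interval 1133 to 33800, counting error only) and the gene was called (adjusted p = 1.30e-08). Against LPS 5d the ratio was 2052 (95% exact interval 702 to 9952, counting error only) and the gene was called as well (adjusted p = 1.03e-07). In LPS + Beta-Ac the counts were 7, 2 and 11, with the lowest animal next to the highest preterm control, and the gene was not called (adjusted p = 0.084, and 0.0243 with a prior count of 0.5). Term animals 200 and 201 held 1 and 22 counts, and the latter was the highest level outside LPS 16h, at 0.712 CPM.

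MMP9, the gelatinase known from neutrophils and macrophages, rose furthest among the 8 members with enough counts for a fold change. Preterm controls 092, 101, 113 and 209 had 0.827, 0.509, 0.461 and 0.109 CPM. In LPS 16h animals 026, 029, 035 and 038 it was at 253, 170, 186 and 198 CPM. The log2 fold change was 8.73 (SE 0.84, adjusted p = 3.47e-06). In LPS 5d it was at 72.8, 28.6 and 29.5 CPM in animals 239, 240 and 242, a log2 change of 6.39 (SE 0.90, adjusted p = 0.000762). MMP9 was thus still far above every preterm control after 5 days, when MMP8 had 1 count per library. In LPS + Beta-Ac it was at 157, 308 and 106 CPM in animals 248, 249 and 255, a log2 change of 8.51 (SE 0.90, adjusted p = 6.19e-05), and the range overlapped with LPS 16h. LPS 16h did not overlap with LPS 5d, and the difference of 2.34 (SE 0.90) was not called (adjusted p = 0.0612). That difference was called by limma-voom (adjusted p = 0.0228) and when only those 2 groups entered the fit (adjusted p = 0.000872).

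At term MMP9 was at 105 CPM in animal 200 and at 3.20 CPM in animal 201. Both were above the preterm range, but the 2 animals differed more from each other than animal 201 did from the preterm controls. The call (log2 change 5.29, SE 1.03, adjusted p = 0.0154) rested on animal 200: without it the change was 2.80 with an adjusted p of 0.11, and without animal 201 it was 7.79. It was not called by limma-voom (adjusted p = 0.15) or from the term and preterm animals alone (adjusted p = 0.146).

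MMP2, the gelatinase made by mesenchymal cells, was the one metalloproteinase among the listed members that was lower than preterm in every other group. Preterm controls had 1343, 1127, 1248 and 927 CPM. LPS 16h had 764, 892, 685 and 756 CPM, LPS 5d 771, 789 and 747 CPM, LPS + Beta-Ac 827, 685 and 695 CPM, and term 692 and 599 CPM. No animal of these 4 groups reached the lowest preterm control, while the groups overlapped with their neighbors. Log2 changes were -0.58 (SE 0.12, adjusted p = 0.00149) in LPS 16h, -0.58 (SE 0.13, adjusted p = 0.00804) in LPS 5d, -0.65 (SE 0.13, adjusted p = 0.00303) in LPS + Beta-Ac and -0.84 (SE 0.15, adjusted p = 0.00817) at term. All were under 2-fold, so none was called. LPS 16h and LPS 5d differed by 0.00 (95% interval -0.27 to 0.28), and LPS + Beta-Ac and LPS 5d by -0.07 (95% interval -0.37 to 0.23). Summed fibroblast markers (9 of 9 in the table) ranged from 2668 to 3836 CPM in preterm controls, from 1619 to 2395 CPM in LPS 16h, from 2248 to 2691 CPM in LPS 5d, from 2026 to 2612 CPM in LPS + Beta-Ac and from 1983 to 2431 CPM at term, with an overlap between LPS 5d and preterm controls. Summed smooth muscle and pericyte markers (7 of 7) ranged from 2258 to 2748 CPM in preterm controls, from 1764 to 2086 CPM in LPS 16h, from 1319 to 1455 CPM in LPS 5d, from 1246 to 1494 CPM in LPS + Beta-Ac and from 1166 to 1492 CPM at term, below every preterm control as for MMP2. Single markers of the second list did not all follow its sum: in LPS 16h, 5 of the 7 were lower and 2 higher than in preterm controls. DES was called higher there (log2 change 1.71, adjusted p = 0.00308), and TAGLN ranged from 457 to 793 CPM against 416 to 478 CPM. The part of either cell type in the MMP2 level was not tested.

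MMP3, the stromelysin that activates other metalloproteinases, stayed near the detection limit. It had 8 counts over the 4 preterm controls, 48 over LPS 16h, 3 over LPS 5d, 4 over LPS + Beta-Ac and 8 over the term animals. The LPS 16h total came to 3, 10, 10 and 25 counts by animal, and preterm controls had 4, 0, 2 and 2, so the groups overlapped. The ratio to preterm controls, relative to library totals, was 3.65 (95% exact interval 1.71 to 8.93, counting error only).

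MMP7, or matrilysin, is made by lung epithelium and cleaves elastin and cell surface proteins. In preterm controls 092, 101, 113 and 209 it was at 83.7, 81.9, 74.9 and 73.4 CPM. It rose in LPS 16h to 1441, 1757, 1225 and 1386 CPM, a log2 change of 4.20 (SE 0.36, adjusted p = 6.26e-07). After 5 days it remained above preterm controls in each animal, at 266, 413 and 405 CPM in LPS 5d and at 775, 288 and 427 CPM in LPS + Beta-Ac. The log2 changes were 2.18 (SE 0.39, adjusted p = 0.00234) and 2.54 (SE 0.39, adjusted p = 0.000611). LPS 16h stood 2.02 above LPS 5d (SE 0.39, adjusted p = 0.00105) with no overlap. Term animal 200 had 277 CPM, within the LPS 5d range, and term animal 201 had 68.4 CPM, just under the preterm range. The term change of 0.81 was not called (adjusted p = 0.346), was -0.20 without animal 200, and was 1.82 with an adjusted p of 0.0257 without animal 201. Summed type 2 cell markers (9 of 9) ranged from 6261 to 9917 CPM in preterm controls, from 9079 to 17130 CPM in LPS 16h, from 13310 to 20830 CPM in LPS 5d, from 15410 to 20820 CPM in LPS + Beta-Ac and from 14200 to 15530 CPM at term. SFTPC and SFTPB had preterm medians of 2803 and 2766 CPM, beside 8010 CPM for the sum. In LPS 16h, 7 of the 9 were higher than in preterm controls and 2 lower (NKX2-1 and ETV5). ETV5 was called lower in LPS 5d (log2 change -1.04) and LPS + Beta-Ac (-1.15). Summed airway secretory and basal markers (9 of 11) ranged from 64.2 to 617 CPM in preterm controls and from 195 to 256 CPM in LPS 16h. The part of these cell types in the MMP7 level was not tested.

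MMP12, the macrophage elastase, was not called in any comparison. It was at 0.139 to 0.248 CPM in preterm controls, 0.213 to 0.781 CPM in LPS 16h, 0.190 to 0.499 CPM in LPS 5d and 0.181 to 0.754 CPM in LPS + Beta-Ac, and all these ranges overlapped. Term animal 200 had the highest level of all 16 animals, 1.88 CPM or 51 counts, and term animal 201 had 0.291 CPM or 9 counts. The term change of 1.73 (SE 0.65) had an adjusted p of 0.154. It was 2.94 with an adjusted p of 0.0418 without animal 201, and 0.51 without animal 200.

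MMP14, the membrane-bound metalloproteinase that activates the MMP2 precursor at the cell surface, was moderately higher in LPS 16h. Preterm controls had 383, 332, 406 and 328 CPM and LPS 16h had 502, 681, 547 and 503 CPM, with no overlap. The log2 change of 0.62 (SE 0.15, adjusted p = 0.00491) was under 2-fold and not called, like the difference of 0.77 from LPS 5d (SE 0.17, adjusted p = 0.00192). LPS 5d had 344, 340 and 290 CPM, LPS + Beta-Ac 404, 507 and 359 CPM, and term 342 and 218 CPM, and each of these overlapped with the preterm range.

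TIMP1, an inducible inhibitor that is also released by neutrophils and activated stroma, was at 76.9, 70.5, 60.1 and 56.0 CPM in preterm controls. In LPS 16h animals 026, 029, 035 and 038 it was at 791, 1775, 1552 and 1403 CPM, a log2 change of 4.34 (SE 0.20, adjusted p = 6.35e-10). Animal 026 had the lowest TIMP1 of this group and the highest MMP9. LPS 5d had 67.4, 87.6 and 64.4 CPM and LPS + Beta-Ac 78.9, 74.2 and 65.1 CPM, and both overlapped with preterm controls. The log2 change was 0.15 in each (95% interval -0.31 to 0.61 in each). LPS 16h was 4.19 above LPS 5d (SE 0.22, adjusted p = 7.57e-09). Term animals had 49.6 and 46.4 CPM, both below the preterm range, a change of -0.45 that did not pass (adjusted p = 0.353).

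TIMP3, the inhibitor that binds to the matrix and also blocks ADAM proteases, moved against TIMP1. Preterm controls had 1467, 1361, 1391 and 1447 CPM, and LPS 16h had 467, 624, 527 and 511 CPM. All LPS 16h animals lay under every other animal of the study. The log2 change was -1.42 (SE 0.12, adjusted p = 3.51e-07) against preterm controls and -1.38 (SE 0.13, adjusted p = 1.60e-06) against LPS 5d, where animals 239, 240 and 242 had 1339, 1452 and 1345 CPM. LPS + Beta-Ac had 1232, 1269 and 924 CPM, below every preterm control, with a change of -0.33 that did not pass (SE 0.13, adjusted p = 0.108). Term animals had the highest levels, 2457 and 1858 CPM, a change of 0.59 (SE 0.15, adjusted p = 0.0399) that was under 2-fold and not called. The summed type 1 alveolar cell markers (7 of 7) followed the same order of groups at its ends, with 1437 to 1706 CPM in LPS 16h, 3926 to 4524 CPM in preterm controls and 4573 to 4854 CPM at term. They ranged from 3362 to 4369 CPM in LPS 5d and from 2530 to 3893 CPM in LPS + Beta-Ac. Of the 7, 6 were lower in LPS 16h than in preterm controls and 1 was higher, and CAV1 alone had a preterm median of 2146 CPM. Lower levels in LPS 16h were not particular to this list. Of 9 fibroblast markers 7 were lower and 2 higher, and of 7 smooth muscle and pericyte markers 5 were lower and 2 higher. The fibroblast marker TCF21 had medians of 172, 42.0 and 177 CPM in preterm controls, LPS 16h and LPS 5d. The part of these cell types in the TIMP3 level was not tested.

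Ordered by mean level, LPS 16h came first for MMP1, MMP3, MMP7, MMP8, MMP9, MMP14 and TIMP1, and last for TIMP3. MMP1 went on with LPS + Beta-Ac, term, LPS 5d and preterm controls, each overlapping with the next. MMP7 went on with LPS + Beta-Ac, LPS 5d, term and preterm controls, again each overlapping with the next. MMP9 had the order LPS 16h, LPS + Beta-Ac, term, LPS 5d and preterm controls, in which LPS 16h overlapped with LPS + Beta-Ac and term with LPS 5d, while preterm controls stood alone. TIMP1 had the order LPS 16h, LPS 5d, LPS + Beta-Ac, preterm controls and term, and the middle groups overlapped in turn. TIMP3 had the order term, preterm controls, LPS 5d, LPS + Beta-Ac and LPS 16h, and only preterm controls and LPS 5d overlapped. For MMP3, MMP12 and MMP14 every pair of neighboring groups overlapped.

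Adding Beta-Ac to LPS addressed whether the steroid changed these genes at 5 days. None of the 9 tested genes was called higher, beside 0.0885% of all genes, and none lower, beside 0%. In limma 1 of the 9 genes, MMP9, had an unadjusted p under 0.05, beside 4.81% of all genes, and limma-voom called 0. MMP9 was higher in all 3 LPS + Beta-Ac animals than in all 3 LPS 5d animals, by 2.13 on the log2 scale (95% interval 0.04 to 4.21, adjusted p = 1). MMP14 was higher and TIMP3 lower without overlap, by 0.37 (95% interval -0.01 to 0.75) and by -0.29 (95% interval -0.59 to 0.02), with an adjusted p of 1 each. MMP8 did not overlap either, with 7, 2 and 11 counts against 1 in each LPS 5d animal (ratio relative to library totals 6.21, 95% exact interval 1.84 to 32.6, counting error only, adjusted p = 1). Between groups of 3 animals, chance alone leaves no overlap for a single gene with a probability of 0.1. The share of all genes without overlap was not counted. The lack of overlap is therefore not read as an effect of Beta-Ac on these members. For TIMP1 the difference was 0.00 (95% interval -0.49 to 0.49) and for MMP7 0.37 (95% interval -0.52 to 1.26). With 3 animals per group these intervals still hold changes of more than 2-fold for MMP1 (-0.70 to 2.41), MMP7, MMP9 and MMP12 (-0.95 to 1.65).

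The 2 times after LPS were also compared directly, with different animals at each time. LPS 16h had 4 of the 9 genes higher than LPS 5d (MMP1, MMP7, MMP8 and TIMP1), beside 7.94% of all genes, and 1 lower (TIMP3), beside 6.66%. The median log2 difference of the 8 genes with a fold change was 1.40 and that of all genes tested -0.04. MMP2 and MMP12 did not differ beyond their spread between the 2 times (adjusted p = 0.987 and 0.819).

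Neutrophil markers (15 of 16 in the table) summed to 47.8 to 86.6 CPM in preterm controls, 1680 to 2427 CPM in LPS 16h, 127 to 171 CPM in LPS 5d, 240 to 660 CPM in LPS + Beta-Ac and 165 to 234 CPM at term. Of the 15, 12 were called higher in LPS 16h, 5 in LPS 5d, 11 in LPS + Beta-Ac and 6 at term, against preterm controls. In preterm controls S100A12, FPR1, FPR2 and AQP9 were at 0 counts in at least 1 animal. S100A8 and S100A9 made up most of the LPS 16h sum, with medians of 489.2 and 924.1 CPM beside 1840 CPM. CXCR2 and ELANE had lower medians in LPS 16h (14.95 and 0.3448 CPM) than in preterm controls (16.63 and 0.6057 CPM). MPO had medians of 0.5403 CPM in LPS 16h and 0.2943 CPM in preterm controls. The ranges of CXCR2, ELANE and MPO overlapped. LTF reached 242.8 CPM in LPS + Beta-Ac. The order of animals by single neutrophil markers was not tested. Macrophage markers (12 of 12) summed to 431 to 527 CPM in preterm controls, 887 to 1335 CPM in LPS 16h, 809 to 905 CPM in LPS 5d, 910 to 1710 CPM in LPS + Beta-Ac and 502 to 1027 CPM at term, and MARCO was at 0 counts in all 4 preterm controls. Of these, 7 were called higher in LPS 16h, 6 in LPS 5d, 10 in LPS + Beta-Ac and 1 at term. Of all genes, 8.25% were called higher in LPS 16h, 2.6% in LPS 5d, 4.05% in LPS + Beta-Ac and 1.11% at term. Single genes made up much of the macrophage sum. APOE had a preterm median of 361.3 CPM, beside 478 CPM for the sum. In LPS 16h, CD14 had a median of 581.7 CPM and APOE 243.8 CPM, beside 1056 CPM. Of the 12 macrophage markers, 10 were higher in LPS 16h than in preterm controls and 2 lower (APOE and VSIG4). Between groups, MMP8 was highest in LPS 16h, which also had the highest neutrophil sums. Within LPS 16h the order was another: animal 035 had the highest neutrophil sum (2427 CPM) and the lowest MMP8 (40.0 CPM), and animal 038 had 1744 CPM and the highest MMP8 (186 CPM). In LPS + Beta-Ac, animal 248 had a neutrophil sum of 660 CPM and 7 counts of MMP8, and animal 255 had 280 CPM and 11 counts. MMP9 likewise followed the macrophage sum in some animals and not in others. In LPS + Beta-Ac, animal 249 had the highest MMP9 (308 CPM) and the highest macrophage sum (1710 CPM). In LPS 5d, animal 239 had the highest MMP9 (72.8 CPM) and the lowest macrophage sum (809 CPM), and in LPS 16h, animal 029 had the lowest MMP9 (170 CPM) and the highest macrophage sum (1335 CPM). Of the term animals, animal 200 had the higher MMP9, a macrophage sum of 1027 CPM and a neutrophil sum of 165 CPM, while animal 201 had the higher MMP8, a macrophage sum of 502 CPM and a neutrophil sum of 234 CPM. The part of either cell type in these levels was not tested.

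**Figure D3:**
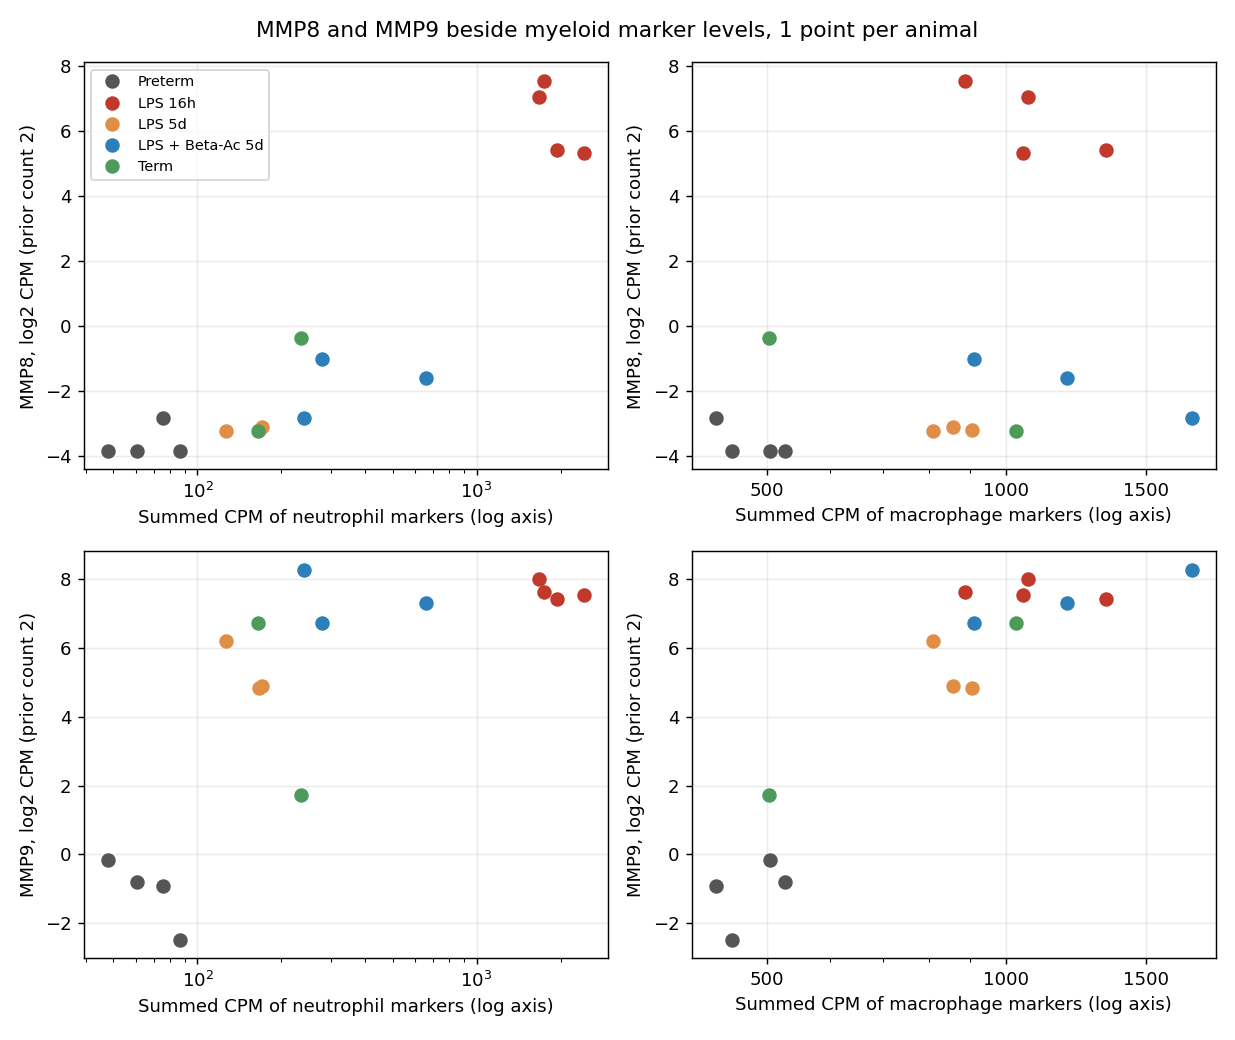
MMP8 (top) and MMP9 (bottom) as log2 CPM with a prior count of 2 against the summed CPM of neutrophil markers (left) and macrophage markers (right) on log axes, 1 point per animal. MMP8 stood apart only in the 4 LPS 16h animals, whose neutrophil sums were 1680 to 2427 CPM; MMP9 was high in the LPS 5d and LPS + Beta-Ac animals and in term animal 200 too, and within LPS 16h neither gene kept the order of the marker sums.

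Genes whose levels were most like those of a member over the 16 animals were listed as a description, since all animals share the same group structure. For MMP9 they were TYROBP (Pearson r = 0.97), NCR3 (0.97) and IFI30 (0.97), of which TYROBP is a signaling adaptor and IFI30 a lysosomal enzyme of myeloid cells. MMP8 was most like IRAK2 (r = 0.98), NXPE3 (0.98) and SLC11A2 (0.98), and IRAK2 is a kinase of Toll-like receptor and IL-1 signaling. TIMP1 was most like PSMA2 (r = 0.99), TNFRSF6B (0.99) and PTX3 (0.99), the last a secreted pattern recognition protein. MMP1 was most like ATP12A (r = 0.96), IL23A (0.96) and NOP58 (0.95), and MMP7 like GPR84 (0.96), EIF3C (0.96) and BATF3 (0.96). TIMP3 was most like CLIC5 (r = 0.95), a gene of type 1 alveolar cells, WSCD2 (0.95) and PTPRQ (0.95). MMP2 was most like TCEAL8 (r = 0.95), ACTA2 (0.94), the smooth muscle actin, and PCLAF (0.93), and MMP14 like NOC2L (0.95), UQCRC1 (0.94) and PLEKHO1 (0.94). MMP12 had no gene as close, the nearest being CD8B (r = 0.87), SLC1A4 (0.76) and NANOG (0.73). Among the members themselves, MMP8 and TIMP1 had r = 0.94 and MMP8 and TIMP3 r = -0.90, whereas MMP9 and TIMP1 had r = 0.51.

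Because a protease acts against its inhibitors, the log2 ratio of a metalloproteinase to a TIMP was taken in each animal, a measure added after the single levels had been seen. The ratio has no natural 0 without gene lengths, so it was compared between groups only. MMP7 and TIMP1 rose together in LPS 16h, and their log2 ratio of 0.12 ± 0.52 (SD, n = 4) was close to the 0.26 ± 0.12 (SD, n = 4) of preterm controls (exact permutation p = 0.657). After 5 days, with TIMP1 overlapping the preterm range, the ratio was 2.29 ± 0.34 in LPS 5d and 2.66 ± 0.67 in LPS + Beta-Ac (SD, n = 3 each). The differences from preterm controls, 2.03 and 2.39, had exact permutation p = 0.0286 each, the smallest p for these group sizes. The MMP9 to TIMP1 ratio was -7.12 ± 0.81 in preterm controls, -2.73 ± 0.76 in LPS 16h (SD, n = 4 each), -0.88 ± 0.89 in LPS 5d and 1.25 ± 0.71 in LPS + Beta-Ac (SD, n = 3 each). All 3 LPS groups lay above preterm controls (exact permutation p = 0.0286 each). LPS + Beta-Ac lay above LPS 5d in each animal with an exact permutation p of 0.1, the smallest possible. Term animals 200 and 201 had MMP9 to TIMP1 ratios of 1.07 and -3.83 and MMP7 to TIMP1 ratios of 2.48 and 0.56. Both ratios lay above the preterm range in each term animal (exact permutation p = 0.0667 each). The MMP14 to TIMP3 ratio was 0.07 ± 0.07 in LPS 16h and -1.97 ± 0.15 in preterm controls (SD, n = 4 each; exact permutation p = 0.0286). It was -1.43 ± 0.15 in LPS + Beta-Ac (SD, n = 3; exact permutation p = 0.0286) and -2.97 ± 0.18 at term (SD, n = 2). In LPS 5d it was -2.09 ± 0.13 (SD, n = 3), a difference of -0.12 from preterm controls (exact permutation p = 0.371). The MMP2 to TIMP3 ratio was 0.54 ± 0.14 in LPS 16h, -0.30 ± 0.24 in preterm controls (SD, n = 4 each; exact permutation p = 0.0286) and -1.73 ± 0.14 at term (SD, n = 2). It was on the other side of preterm controls in LPS 5d, at -0.84 ± 0.04 (SD, n = 3; exact permutation p = 0.0571), and in LPS + Beta-Ac, at -0.63 ± 0.24 (SD, n = 3; exact permutation p = 0.143). Over all 24 such tests, two-sided, the smallest Benjamini-Hochberg value was 0.0623, so none passed after adjustment. The exact permutation p cannot fall below 0.0286, below 0.0667 at term, or below 0.1 between LPS + Beta-Ac and LPS 5d. The group sizes therefore largely set this outcome, and it does not show that the ratios were unchanged.

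**Figure D4:**
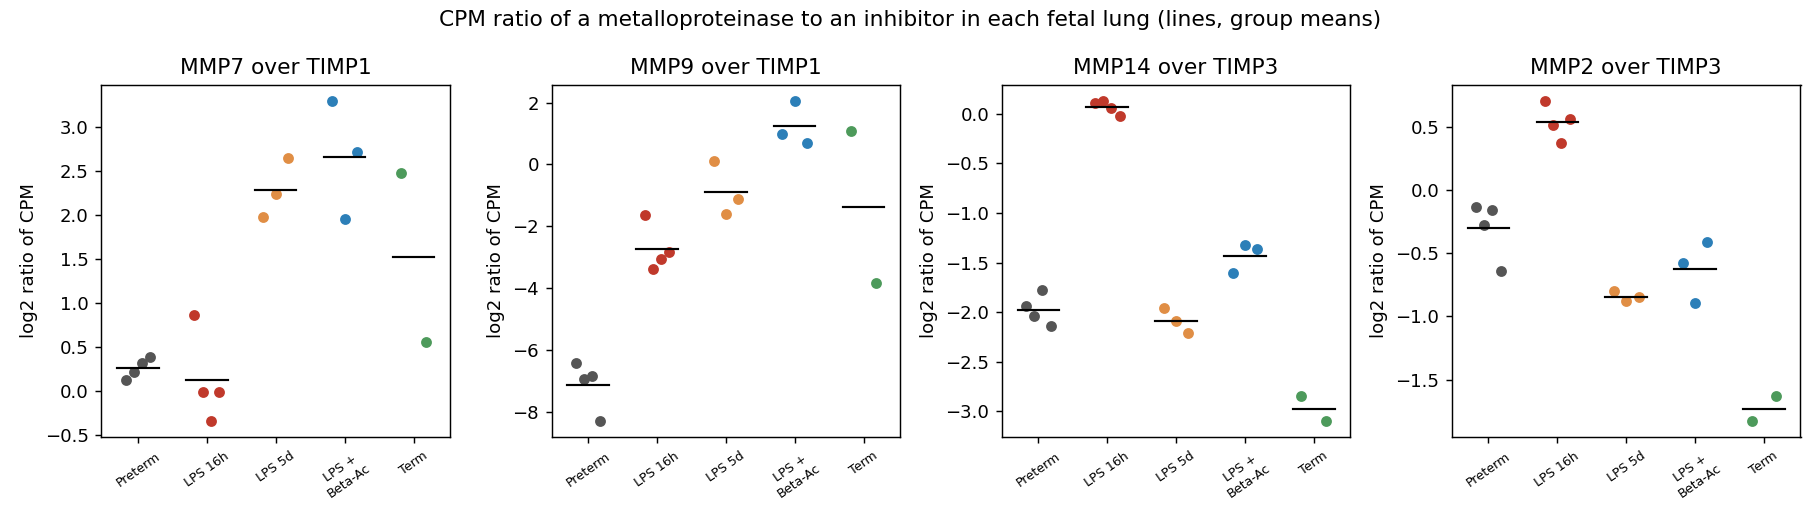
Log2 ratio of CPM of a metalloproteinase to an inhibitor in each of the 16 animals (points) with group means (lines), for MMP7 and MMP9 over TIMP1 and MMP14 and MMP2 over TIMP3. The MMP7 to TIMP1 ratio of LPS 16h surrounds that of preterm controls while those of LPS 5d, LPS + Beta-Ac and term lie above it. The ratios to TIMP3 are highest in LPS 16h and lowest at term.

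MMP7, MMP8, MMP1, MMP3 and MMP12 lie in 1 row of metalloproteinase genes on a chromosome, in the order MMP26, MMP7, MMP20, MMP27, MMP8, MMP10, MMP1, MMP3, MMP12 and MMP13 in the RefSeq annotation of another rhesus assembly. Of the members in this row, MMP7, MMP8 and MMP1 were called higher in LPS 16h, MMP3 was not tested, and MMP12 was not called (95% interval of its log2 change -0.35 to 1.90). MMP10, a stromelysin that lies between MMP8 and MMP1, was at 0.044 ± 0.066 CPM in preterm controls and at 7.63 ± 6.61 CPM in LPS 16h (SD, n = 4 each), and was called (adjusted p = 7.30e-05). It was at 2.79 ± 2.95 CPM in LPS + Beta-Ac (SD, n = 3) and called there as well (adjusted p = 0.00501), but not in LPS 5d (adjusted p = 0.163). MMP13, MMP20, MMP26 and MMP27 had too few counts to be tested. The family shares sequence, and how reads common to several of its members were divided is not given in the sources used here.

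Of 15 other metalloproteinases, 14 were in the table and 10 were tested. In LPS 16h, 2 were called higher (MMP10 and MMP25) and 2 lower (MMP11 and MMP24), 1 and 0 in LPS 5d, 2 and 0 in LPS + Beta-Ac, and 1 and 1 at term. Of all genes, 8.25% were called higher and 6.11% lower in LPS 16h, and 2.6% and 2.24% in LPS 5d. The shares were 4.05% and 2.44% in LPS + Beta-Ac and 1.11% and 0.953% at term. MMP25, a membrane-bound metalloproteinase known from leukocytes, was called higher in each group: from 4.26 ± 0.22 CPM in preterm controls it reached 26.4 ± 6.4 CPM in LPS 16h, 11.97 ± 2.8 CPM in LPS 5d, 16.8 ± 2.7 CPM in LPS + Beta-Ac and 11.3 ± 3.7 CPM at term (adjusted p between 8.59e-08 and 0.00817). MMP11, or stromelysin 3, made by mesenchymal cells, fell from 15.04 ± 4.5 CPM to 4.67 ± 0.89 CPM in LPS 16h (adjusted p = 2.48e-05) and 6.62 ± 0.11 CPM at term (adjusted p = 0.0287). Of the other inhibitors, 4 of 5 were tested and only TFPI2, an inhibitor of serine proteases, was called (log2 change 1.07 in LPS 16h, adjusted p = 0.00962). TIMP2 and the membrane-anchored inhibitor RECK were lower in LPS 16h by less than 2-fold, with changes of -0.88 (adjusted p = 6.92e-05) and -0.78 (adjusted p = 0.000252). They were lower by less than 2-fold in LPS 5d (adjusted p = 0.0186 and 0.0066) and LPS + Beta-Ac (adjusted p = 0.0196 and 0.00169) too.

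Of 13 tested genes whose proteins activate, bind or carry metalloproteinases, 6 were called higher and 1 lower in LPS 16h. LCN2, which binds MMP9 in neutrophil granules and is also made by epithelium, rose from 8.09 ± 3.33 CPM to 2092 ± 192 CPM (log2 change 8.09, adjusted p = 5.14e-10) and was called in LPS 5d (143.5 ± 58.1 CPM), LPS + Beta-Ac (251 ± 98 CPM) and term (63.5 ± 26.8 CPM) too. CD44, the hyaluronan receptor that docks MMP9 on cells, rose by 3.27 (adjusted p = 1.54e-08), and the urokinase receptor PLAUR by 3.65 (adjusted p = 6.65e-10). SERPINB2, an inhibitor of urokinase, rose by 5.28 (adjusted p = 9.06e-06). The list had 2 called higher in LPS 5d (LCN2 and CMA1), 4 in LPS + Beta-Ac (LCN2, CMA1, PLAU and CD44) and 1 at term (LCN2), and 0 lower. Beside these, 8.25% of all genes were called higher and 6.11% lower in LPS 16h, and 2.6% and 2.24% in LPS 5d. It was 4.05% and 2.44% in LPS + Beta-Ac and 1.11% and 0.953% at term. CMA1, the mast cell chymase, was called in LPS 5d (2.67, adjusted p = 0.00383) and LPS + Beta-Ac (3.20, adjusted p = 0.000834).

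Of 17 cytokines and transcription factors known to induce metalloproteinases, 10 were called higher in LPS 16h, 5 in LPS 5d, 6 in LPS + Beta-Ac and 7 at term, and 0 lower in any of the 4. IL1B was at 1.07 ± 0.53 CPM in preterm controls, 1126 ± 380 CPM in LPS 16h, 6.89 ± 0.65 CPM in LPS 5d and 18.8 ± 16.9 CPM in LPS + Beta-Ac. The term calls included FOS (5.16, adjusted p = 0.0361, 47.8 ± 55.1 CPM in preterm controls and 1084 ± 702 CPM at term) and FOSB (5.55, adjusted p = 0.00942), subunits of AP-1. Of the ADAM and ADAMTS proteases, 26 of 27 were tested, with 4 called higher and 3 lower in LPS 16h, 0 and 1 in LPS 5d, 0 and 1 in LPS + Beta-Ac, and 0 and 0 at term, where 6 of the 26 had an unadjusted p under 0.05 in limma, beside 18.9% of all genes. ADAMTS4, an aggrecanase, rose from 4.73 ± 2.77 CPM to 92.6 ± 33.3 CPM in LPS 16h (adjusted p = 2.57e-07) and fell by 1.24 in LPS 5d (adjusted p = 0.0425). Of 6 other matrix proteases, 1 was called higher in LPS 16h (the cathepsin CTSS), 0 in LPS 5d, 4 in LPS + Beta-Ac (CTSB, CTSG, CTSL and CTSS) and 0 at term. Of 14 matrix substrates, 1 was called higher and 2 lower in LPS 16h, 0 and 1 in LPS 5d, 0 and 3 in LPS + Beta-Ac, and 0 and 4 at term. For all lists of this paragraph, the shares of all genes called higher and lower were 8.25% and 6.11% in LPS 16h. They were 2.6% and 2.24% in LPS 5d, 4.05% and 2.44% in LPS + Beta-Ac, and 1.11% and 0.953% at term. ELN, or elastin, fell by 1.33 in LPS 16h (adjusted p = 3.86e-07) and by 1.11 at term (adjusted p = 0.00177), and COL1A1 fell by 1.26 in LPS + Beta-Ac (adjusted p = 0.0126) and by 1.58 at term (adjusted p = 0.0271).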

How the data were processed

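RNA of frozen fetal lung was sequenced as paired-end reads. Per the paper and the labels, the authors pseudoaligned the reads to MMUL10 using kallisto, collapsed transcripts to genes through tximport, and compared groups in DESeq2. The authors deposited gene counts, all whole numbers, with no normalization and no filter. Any rounding of estimated counts is not stated in the sources used here. Because the layout of the table kept the automatic unit check from reading it as counts, its unit was recorded as other and no count model was run. Library totals ran from 20169363 to 48052891 counts.

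Groups came from the labels. Symbols came from Ensembl IDs (17256 of 22515 matched). Counts were scaled with TMM (30% of log ratios and 5% of means trimmed), put on the log2 CPM scale (prior count 2) and fitted in limma 3.58.1 (R 4.3.3), with trend and robust options and a mean for each of the 5 groups. To be tested, a gene needed 15 counts over all animals and, in 2 or more of them, 0.371 CPM (equal to 10 counts at the median depth). It was called at a two-sided Benjamini-Hochberg adjusted p below 0.05 over all 19199 genes and a change of at least 2-fold. Genes with a mean under 4 counts in a compared group were given no fold change. Count ratios used unscaled totals with exact 95% intervals. These cover counting error only.

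The members, the lists of related genes and the markers were chosen with earlier results of these data known. All members were named. Of every other list, at most 5 called genes per comparison, those with the largest change, were open to naming, with the 3 genes of highest Pearson r for each member. MMP13, MMP20, MMP26, MMP27, TIMP2, RECK, CXCR2 and ELANE fall outside this rule and were named after their values were seen. S100A12, AQP9, MARCO and SFTPC fall outside it too. The limma fit was tested on simulated data, with changes set only in genes well above the detection limit. Genes with few counts, the count ratios and the permutation tests were not covered. Alternatives were median-of-ratios scaling, no filter, a prior count of 0.5, limma-voom, a fit of the compared groups only, no fold limit and leaving out each animal. The labels give no batch and no sex. The result of 1 listed gene is not reported here.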

Additional observations from a re-analysis of the deposited data

Results flagged for a closer look

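MMP1 in preterm controls had its highest animal, 101, apart from the other 3: the gap to the next animal was 0.898 of the range of log2 CPM, at 1.48 CPM. MMP8 in preterm controls had its highest animal, 113, at a gap of 1.0 of the range, which rests on 2 counts against 0 in the other 3 animals. For normally distributed values, chance alone gives gaps this large in about 1 in 20 groups. That rate does not apply to MMP8, whose gap must be 1.0 once the other 3 animals are at 0 counts.

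In the direct limma test of LPS 16h against LPS 5d, 5 members were called, which needs a change of at least 2-fold. Of all genes, 7.94% were called higher and 6.66% lower in that test. MMP14 differed by 0.772 (adjusted p = 0.00192), under 2-fold, and is not among the 5. The difference on the log2 scale was 4.722 for MMP1, 2.023 for MMP7 and 4.189 for TIMP1, each larger at 16 hours, and -1.381 for TIMP3, lower at 16 hours. For MMP8, which has too few counts at 5 days for a fold change, the adjusted p was 1.027e-07. The animals at the 2 times were different fetuses.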

How the results depend on the processing

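The number of members called kept within 1.5 times its value under every alternative in 5 of the 6 comparisons: 6 to 8 in LPS 16h, 2 to 3 in LPS 5d and in LPS + Beta-Ac against preterm controls, 0 in LPS + Beta-Ac against LPS 5d, and 5 to 6 in LPS 16h against LPS 5d. Term against preterm controls, with 2 term animals, did not: its 1 call became 3 with no minimum fold change, 0 with limma-voom and 0 with only the groups compared, and ranged from 0 (without animal 200) to 3 (without animal 201) as single animals were left out. Without animals 209 and 200, an alternative chosen after seeing the data, MMP2 was called lower in place of MMP9 higher, and MMP7 was at -0.228. The direction also turned for 7 uncalled values when 1 animal was left out: TIMP3 in LPS 5d against preterm controls ranged from -0.058 to 0.009, MMP7 at term from -0.196 to 1.823, MMP7, MMP12 and TIMP1 in LPS + Beta-Ac against LPS 5d from -0.017 to 0.697, from -0.044 to 0.814 and from -0.084 to 0.136, and MMP2 and MMP12 in LPS 16h against LPS 5d from -0.069 to 0.050 and from -0.127 to 0.496. TIMP1 in LPS + Beta-Ac against LPS 5d was 0.001, and was -0.001 with median-of-ratios scaling, -0.001 with limma-voom and -0.013 with libraries thinned to the smallest total (chosen after seeing the data). The cause of these changes was not tested. Median-of-ratios scaling moved the median of all genes by at most 0.047. No paired analysis was possible because the groups share no animal numbers. Depth limits MMP3, MMP8 outside LPS 16h and MMP12: most of their libraries held fewer than 10 counts, so a change of a few counts was not detectable there.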
